A study of Caenorhabditis elegans with 12 samples.

Results

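Unheated mir-85(n4117) animals were compared with unheated WT animals (Bristol N2), both grown for 47 hrs at 20°C and collected whole at the last larval stage (L4). The 3 mir-85(n4117) libraries and the 3 WT libraries were chosen by the strain and treatment in their labels and are 6 of the 12 libraries in the series. The remaining 6 come from heated worms of either strain (3 hrs at 35°C following 44 hrs at 20°C) and enter here only as values side by side. Replicates are called biological in the study. The mutant is 1 allele, a deletion of mir-85 that, by the study's account, also disrupts part of the protein-coding gene F49E12.8, and how often the strain was back-crossed is not given in the sources used here.

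MicroRNAs are short RNAs that Argonaute proteins use to pair with messenger RNAs and lower their translation or stability, and miR-85 is one of those made in C. elegans. The heat shock factor HSF-1 induces hsp-70 and the hsp-16 genes upon heat, and their messages are normally scarce in unstressed worms. The L4 stage itself moves fast: the germline switches from sperm to oocytes, cuticle genes are switched on in waves for the last molt, and the heterochronic pathway ends the larval program and starts adult genes such as col-19 and the vitellogenins. A difference between unheated strains can therefore be read against stress, against time within L4 and against tissue makeup, and the results below are ordered that way. In whole worms, fewer cells of a type and less RNA per cell cannot be told apart.

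The libraries held 25552873 to 38586076 counts in mir-85(n4117) and 28327177 to 33040261 in WT. WT replicate 3 stood apart, with 65.5% of its counts on ribosomal RNA genes, against 13.7% to 27.1% in the other 5 libraries, and with 9505142 counts on protein-coding genes, against 19762894 to 29652439. It lay at 63.9 on the first principal component, which held 43.4% of the variance, and the other 5 libraries lay between -25.2 and 10.2. On the second, mir-85(n4117) replicates 2 and 3 lay at -28.8 and -30.5, while mir-85(n4117) replicate 1 lay on the far side together with WT replicates 1 and 2. The table headers place all mutant libraries and WT replicate 1 in lane 3 and WT replicates 2 and 3 in lane 8, so a fit with the lane as a covariate leans on WT replicate 1 for the strain difference. Genes that embryos switch on were near absent: only 1 of 10 such genes had enough counts to be tested, and the major sperm proteins that mark L4 spermatogenesis were abundant in every library.

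The targeted locus matched the labels. Reads on mir-85 (II:8393553-8393658, + strand, coordinates of build WBcel235) numbered 0, 0 and 0 in mir-85(n4117) and 5, 5 and 0 in WT, too few to be tested. F49E12.8, on the opposite strand (II:8392568-8394305), had 2, 0 and 2 counts in mir-85(n4117), against 142, 220 and 78 in WT. It was at least 72.4-fold lower in the mutant, taking 3 counts in each library as the floor (edgeR's quasi-likelihood test, Benjamini-Hochberg adjusted p = 0.00432), and no mutant library came near a WT library.

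In all, 8 genes were called, F49E12.8 among them. Calls were limited to protein-coding genes with a mean above 10 normalized counts and an adjusted p under 0.05. They also had to reach a log2 fold change of 1 or more either way. A normalized count is a read count scaled to the mean effective size of the 6 libraries. Sums over a list, and the median levels of a list per library, were instead scaled with all 12 libraries. Of 15349 genes tested, 2 were called higher in mir-85(n4117) (0.013%) and 6 lower (0.0391%). At an unadjusted p under 0.05 there were 705 higher genes (4.59%) and 781 lower genes (5.09%). Together these made up 9.68% of the genes tested, and the shares are the background for the lists that follow. In 1417 genes (9.23%) all mutant libraries lay above all WT libraries, and in 1263 genes (8.23%) all lay below.

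The 2 called rises were gly-20 and oac-10. The gene gly-20 encodes a glycosyltransferase that acts in the building of complex N-glycans. Its normalized counts were 1399, 1368 and 1419 in mir-85(n4117), against 519.7, 374.7 and 315.4 in WT, which gave 1.78 ± 0.19 (SE) on the log2 scale (edgeR adjusted p = 0.0498). The mutant libraries hardly differed from each other (1395 ± 25.7 SD, against 403 ± 105 in WT). The acyltransferase-like gene oac-10 had 87.04, 126 and 121 normalized counts in mir-85(n4117), against 13.9, 18.4 and 20.9 in WT (log2 fold change 2.68 ± 0.26, edgeR adjusted p = 0.0402). Both gaps were wider than the spread within either strain.

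Of the 6 called falls, 4 lay in 2 short stretches of chromosome V. In the first stretch, clec-222, of the C-type lectin family, had 1, 0 and 1 counts in mir-85(n4117), against 63, 56 and 30 in WT, at least 25.6-fold lower (edgeR adjusted p = 0.0105). Its neighbour clec-223, of the same family, had 8.29, 9.81 and 9.79 normalized counts in mir-85(n4117), against 79.0, 64.3 and 99.0 in WT (log2 fold change -3.09 ± 0.27, edgeR adjusted p = 0.0242). The next tested gene on the other side is str-115, of a chemoreceptor family, which missed the limit (edgeR adjusted p = 0.0637) with 0, 0 and 0 counts in mir-85(n4117) and 73, 92 and 61 in WT, at least 41.8-fold lower. The called gene gly-20 follows clec-223 directly, so 4 tested genes in a row (V:11269091-11286039) separated by strain, 3 of them lower and gly-20 higher. The flanking genes did not separate: cln-3.1 on one side had a log2 fold change of -0.16 and C03E10.3 on the other 0.86, and neither passed the test.

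The second stretch (V:14609943-14612222) holds the adjoining genes R11H6.4 and R11H6.5, for which no role is given here. R11H6.4 had 0, 0 and 0 counts in mir-85(n4117), against 175, 215 and 102 in WT, at least 84.6-fold lower (edgeR adjusted p = 0.0105). R11H6.5 had 15, 6 and 5 counts in mir-85(n4117), against 497, 626 and 175 in WT, and 6.90 ± 3.08 against 521 ± 60.01 normalized counts (log2 fold change -6.17 ± 0.28, edgeR adjusted p = 0.00126). The genes beside this pair, ccnk-1 at 0.01 and an unnamed gene at -0.02 on the log2 scale, did not separate by strain. The remaining call, ZK6.8, on the left end of chromosome V, was also lower: 116, 114 and 134 normalized counts in mir-85(n4117), against 303, 313 and 318 in WT (log2 fold change -1.36 ± 0.14, edgeR adjusted p = 0.0402).

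**Figure D1:**
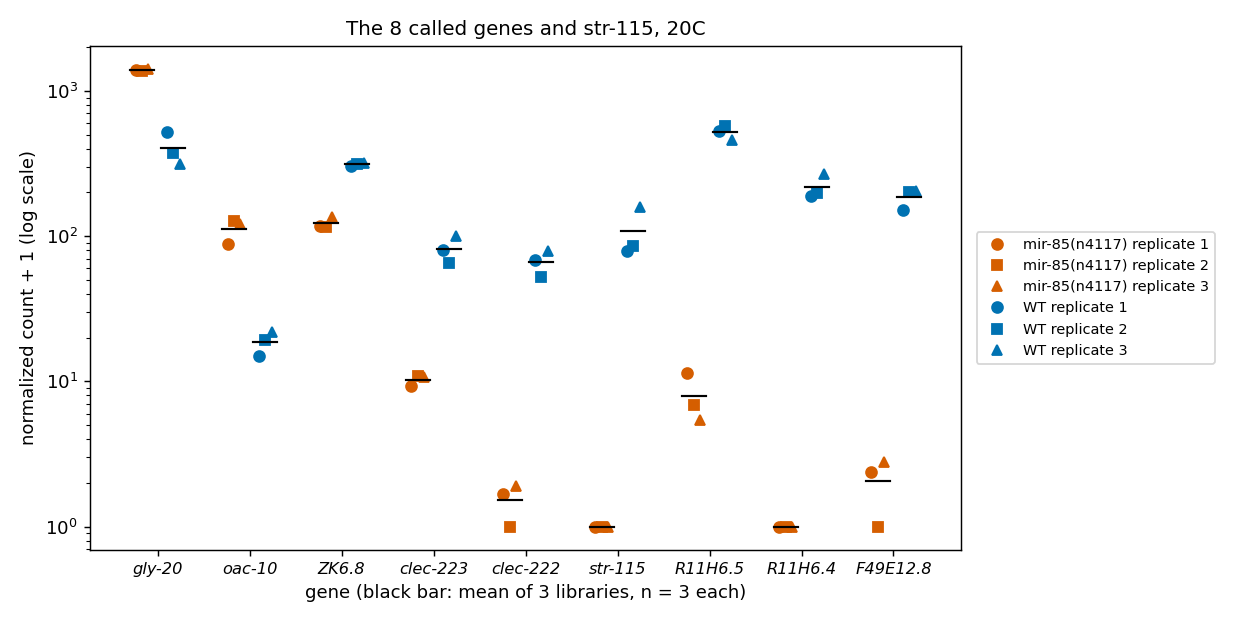
Normalized counts plus 1 on a log axis for the 8 called genes and str-115, 1 point per library, mir-85(n4117) left of WT and a black bar at the mean of 3 libraries. R11H6.4 and str-115 sit at 0 counts in all mutant libraries, and in none of the 9 genes do the strains overlap.

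Heated animals gave values on the same side for 6 of these genes. At 35°C the log2 fold change was 2.04 for gly-20, -6.43 for R11H6.5, -9.51 for R11H6.4, -2.25 for clec-223, -3.50 for clec-222 and -3.86 for F49E12.8. ZK6.8, by contrast, stood at 0.38 at 35°C, and oac-10 had too few counts there to be tested. The fall of R11H6.5 was called in all 13 alternative fits that tested the gene and that of F49E12.8 in 12 of 13 (not without WT replicate 2), whereas ZK6.8 was called in 4 of 14, oac-10 in 5 of 13, clec-223 in 5 of 14, gly-20 in 6 of 14, clec-222 in 8 of 13 and R11H6.4 in 9 of 13. The log2 fold changes themselves stayed within -1.44 to -1.31 for ZK6.8, 2.52 to 2.99 for oac-10, -3.25 to -2.95 for clec-223 and 1.42 to 2.01 for gly-20. With the lane as a covariate 2 calls were left, both lower.

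Outside the calls no gene passed the adjusted limit, and what follows gives levels, with adjusted p-values from the same edgeR fit, and counts over lists at the unadjusted limit. Just short of it was pudl-1, a gene of unstated role on chromosome IV, with 47, 31 and 54 counts in mir-85(n4117) against 1, 0 and 0 in WT, at least 8.05-fold higher (edgeR adjusted p = 0.0518). The cytochrome P450 gene cyp-13A4 had 44.2, 41.2 and 47.2 normalized counts in mir-85(n4117), against 5.34, 2.75 and 0 in WT (edgeR adjusted p = 0.0913). The F-box gene fbxa-192 had 428, 334 and 332 normalized counts in mir-85(n4117), against 117, 131 and 162 in WT, a log2 fold change of 1.43 that was 1.41 at 35°C (edgeR adjusted p = 0.0913 at 20°C). In these 3 genes the strains did not overlap.

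Heat-inducible chaperones were the list with the highest median. All 5 tested members (hsp-70, its relatives F44E5.4 and F44E5.5, and hsp-16.2 with hsp-16.41 of the small heat shock proteins) were higher in mir-85(n4117) at an unadjusted p under 0.05, with a median log2 fold change of 3.27, against 0.01 over all genes tested. HSP-70 family proteins refold or hold damaged proteins with the use of ATP, and the HSP-16 proteins keep unfolded proteins from clumping. The normalized counts of hsp-70 were 368, 1873 and 1830 in mir-85(n4117), against 262, 118 and 80.8 in WT (log2 fold change 3.10 ± 0.70, edgeR adjusted p = 0.284). Those of hsp-16.2 were 51.8, 527 and 516 in mir-85(n4117), against 41.6, 12.9 and 10.4 in WT (3.97 ± 0.97, edgeR adjusted p = 0.307). In both genes mutant replicates 2 and 3 were far above the rest, while mutant replicate 1 was only just above WT replicate 1. Over the alternative fits (edgeR variants and DESeq2) the adjusted p ran from 6.04e-05 to 0.919 for hsp-70 and from 0.0145 to 0.952 for hsp-16.2. With DESeq2 the study itself reported hsp-70 as over-expressed in the mutant. It also reported a significant rise in unheated mutants by RT-qPCR, of about 2-fold, which is smaller than the fold change here. Animals lacking the miR-85 sites in the hsp-70 3'UTR had a similar rise by RT-qPCR in the study.

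The other members had the same profile. The gene hsp-16.41 had 55.3, 656 and 515 normalized counts in mir-85(n4117), against 43.8, 22.96 and 18.2 in WT. F44E5.4 had 55.3, 264 and 312 in mir-85(n4117), against 37.4, 19.3 and 0 in WT, and F44E5.5 had 80.1, 345 and 347 against 55.5, 20.2 and 2.61. These 2 genes are near-identical copies, so reads may have been split between them. Summed over the list, mutant libraries differed 5.97-fold between highest and lowest and WT libraries 3.96-fold. All 5 members stayed at an unadjusted p under 0.05 when any 1 library was left out, but only 2 did with the replicate block and 1 with the lane covariate, where the median was 2.48. The other 4 annotated members, duplicated copies of hsp-16.1 and hsp-16.48, had 0 counts in all 6 libraries and were not tested. Even after heat the counts of these copies were 0 to 112 per library, so 0 counts here do not show that they were silent.

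**Figure D2:**
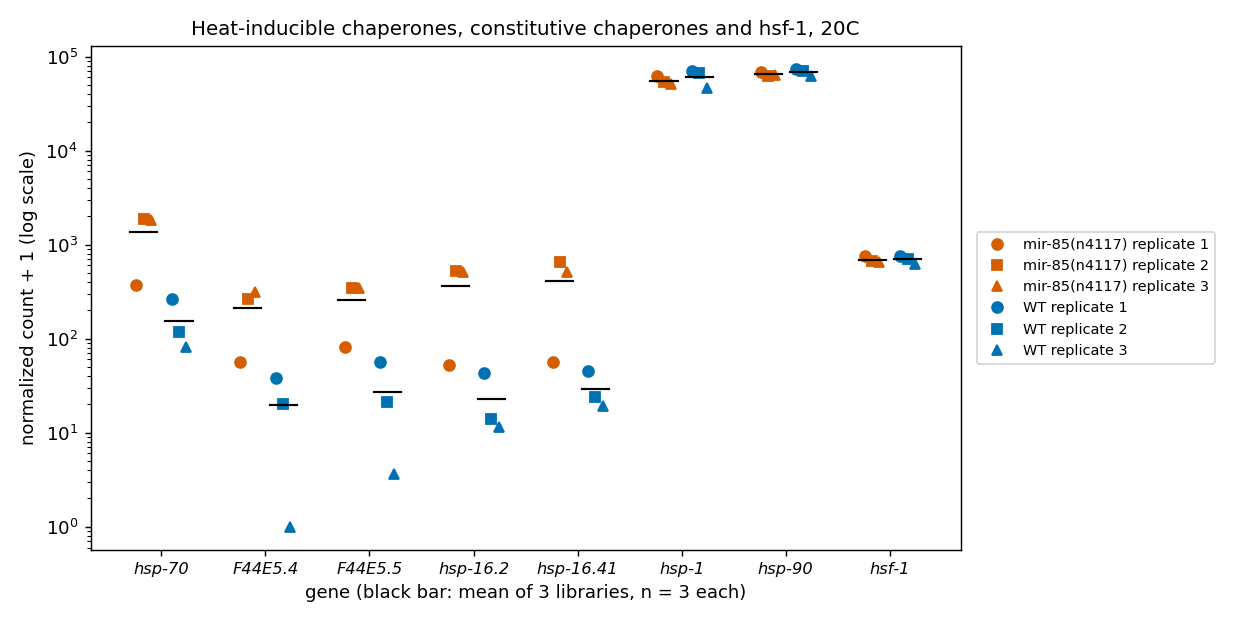
Normalized counts plus 1 on a log axis for 5 heat-inducible chaperones, the constitutive chaperones hsp-1 and hsp-90, and hsf-1, 1 point per library, mir-85(n4117) left of WT and a black bar at the mean of 3 libraries. In the 5 heat-inducible genes mutant replicates 2 and 3 lie above all others and mutant replicate 1 lies next to WT replicate 1, whereas hsp-1, hsp-90 and hsf-1 overlap.

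Against heated worms all of these levels were small. Set on 1 scale with all 12 libraries, hsp-70 in unheated animals was at 0.219%, 1.11% and 1.08% of the mean WT level after 3 hrs at 35°C in mir-85(n4117), and at 0.156%, 0.069% and 0.0478% in WT. For hsp-16.2 the shares were 0.0814%, 0.823% and 0.805% in mir-85(n4117) and 0.0655%, 0.02% and 0.0163% in WT. At 35°C itself the median log2 fold change of the 5 genes between strains was -0.04.

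Chaperones that are made without heat did not share the pattern. Of 14 constitutive cytosolic chaperones and co-chaperones, 1 was higher and 1 lower at an unadjusted p under 0.05, and the median log2 fold change was 0.02. The HSP70 gene hsp-1 had 61930, 53100 and 51150 normalized counts in mir-85(n4117), against 70500, 66580 and 45970 in WT, and hsp-90 overlapped likewise (68080, 62820 and 63360 against 74030, 70180 and 62470). The message of hsf-1 itself had 750, 671 and 645 normalized counts in mir-85(n4117), against 759, 704 and 618 in WT. The higher member was dnj-13, a J-domain co-chaperone that stimulates HSP70 (log2 fold change 0.65, edgeR adjusted p = 0.484), and the lower one pph-5, a phosphatase that acts with HSP90 (-0.57, edgeR adjusted p = 0.394).

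Among other stress lists, that of osmotic and metal stress stood out in 3 genes of solute and sugar metabolism. The inositol transporter gene hmit-1.1, known to be induced by salt, had 1315, 1035 and 915 normalized counts in mir-85(n4117), against 615, 646 and 566 in WT (log2 fold change 0.84 ± 0.16, edgeR adjusted p = 0.246). The glycerol-producing enzyme gene gpdh-2 had 6156, 7276 and 6094 in mir-85(n4117), against 3650, 3592 and 5040 in WT (0.67 ± 0.18, edgeR adjusted p = 0.336). The trehalose synthase gene tps-2 had 4391, 4576 and 4363 in mir-85(n4117), against 3012, 2865 and 3417 in WT (0.52 ± 0.13, edgeR adjusted p = 0.307). In all 3 genes the lowest mutant library was above the highest WT library, and here mutant replicate 1 was not the odd one out. The osmotically induced gpdh-1, with 1801, 958 and 808 in mir-85(n4117) against 862, 685 and 313 in WT, overlapped by 1 library. In all, 3 of 8 members were at an unadjusted p under 0.05, both without and with the lane covariate (2.27% of all genes were higher at that limit with the covariate), with medians of 0.44 and 0.51, and at 35°C the median was 0.15. The metallothionein gene mtl-1 had 1 far library: 11.7, 194 and 118 in mir-85(n4117), against 47.0, 202 and 1514 in WT.

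Lists of single stress pathways held few members past the unadjusted limit. The mitochondrial unfolded protein response had 0 of 8 members at an unadjusted p under 0.05 and the 32 proteasome subunits had 0. Of 18 genes of endoplasmic reticulum stress 1 was higher, xbp-1, the transcription factor of that response (log2 fold change 0.45, edgeR adjusted p = 0.394). Of 17 oxidative stress genes 1 was higher, gst-4 (1.19, edgeR adjusted p = 0.484), whose libraries overlapped. Of 9 hypoxia genes 8 had a positive log2 fold change, with a median of 0.39, but rhy-1 alone, with 341, 631 and 709 normalized counts in mir-85(n4117) and 346, 212 and 93.8 in WT, was at an unadjusted p under 0.05 (edgeR adjusted p = 0.443). In rhy-1, again, mutant replicates 2 and 3 were the high ones.

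The heterochronic genes, which set the order of larval events, lay mostly on the lower side. Of 19 tested, 18 had a negative log2 fold change (the other, blmp-1, was at 0.02), 8 were lower at an unadjusted p under 0.05 (5.09% of all genes were) and none was higher, with a median of -0.52. The period-like gene lin-42, which oscillates with each larval molt, had 302, 408 and 512 normalized counts in mir-85(n4117), against 1367, 543 and 1212 in WT (log2 fold change -1.35 ± 0.36, edgeR adjusted p = 0.337). The gene mab-10, which encodes a partner of LIN-29 in ending the larval program, had 85.7, 82.4 and 81.9 in mir-85(n4117), against 265, 119.4 and 203 in WT (-1.23 ± 0.29, edgeR adjusted p = 0.295). In both genes WT replicate 2 was the WT library nearest to the mutant, yet no mutant library reached it.

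The transcription factor gene lin-29, which triggers the larva-to-adult switch of the epidermis, had 185, 232 and 221.6 normalized counts in mir-85(n4117), against 392, 257 and 305 in WT (-0.58 ± 0.19). The steroid receptor gene daf-12 had 253, 213 and 218.1 in mir-85(n4117), against 406, 254 and 321 in WT (-0.52 ± 0.19), so that the strains were barely parted. The casein kinase gene kin-20 had 662, 592 and 497 in mir-85(n4117), against 804, 820 and 1095 in WT (-0.63 ± 0.17). Of these 3 genes, kin-20 had the widest gap between the strains. Then lin-66, a negative regulator of lin-28, had 261, 232 and 202 in mir-85(n4117), against 414, 304 and 516 in WT (-0.82 ± 0.21). The early-acting gene lin-14 had 339, 291 and 290 in mir-85(n4117), against 403, 364 and 375 in WT (-0.31 ± 0.13), and hbl-1 138, 102 and 121, against 192.1, 134 and 203 (-0.54 ± 0.21). Only hbl-1 of these 8 genes had libraries that overlapped, in 1 library. By contrast lin-28 (399, 394 and 404 in mir-85(n4117), against 385, 472 and 490 in WT) did not separate.

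**Figure D3:**
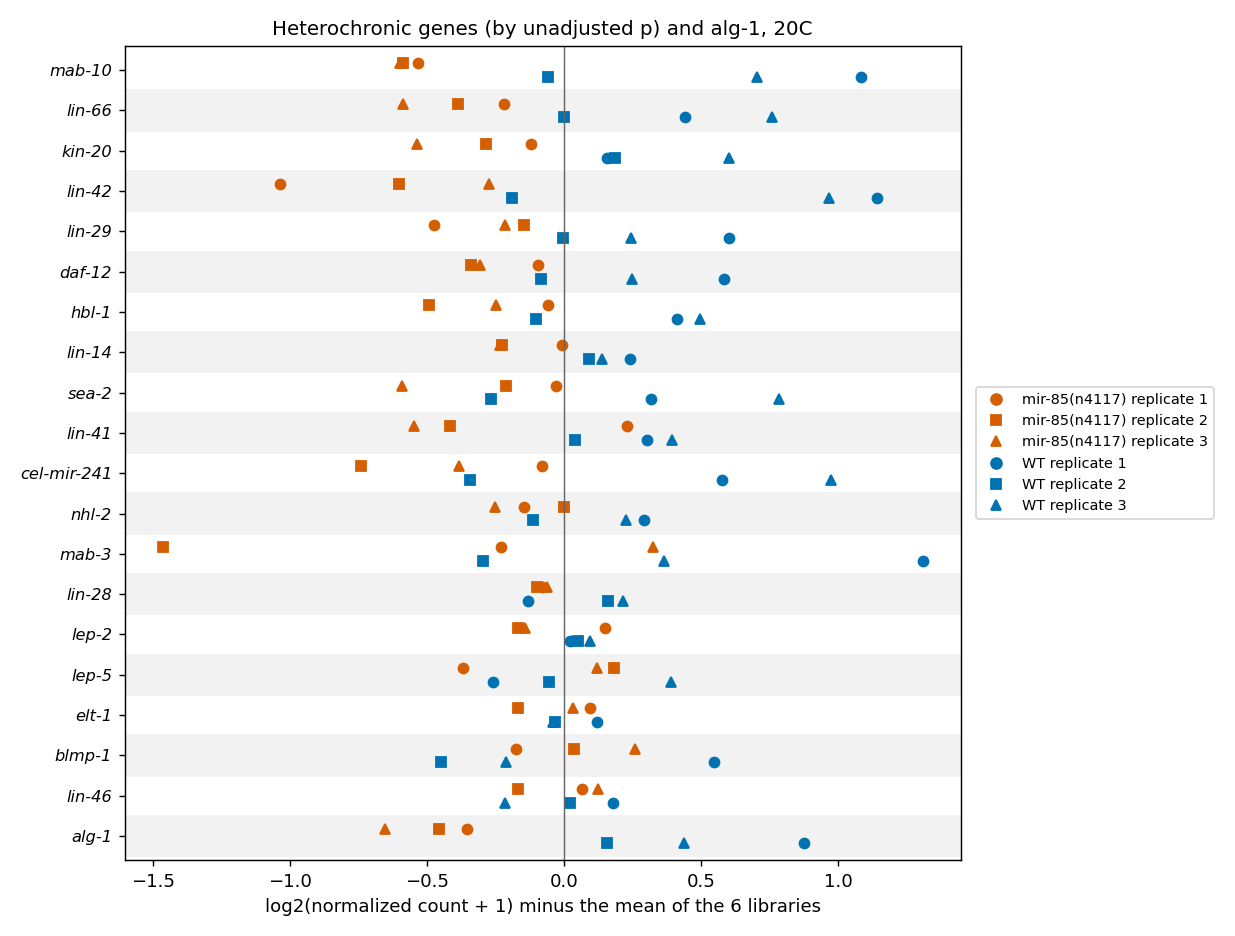
Log2 of the normalized count plus 1, minus the mean of the 6 libraries, for 19 heterochronic genes in the order of their unadjusted p and for alg-1, 1 point per library, mir-85(n4117) above WT in each row. In mab-10 to daf-12, lin-14 and alg-1 every mutant point lies left of every WT point, WT replicate 2 is mostly the nearest WT library, and the lower rows of the list overlap.

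Single libraries moved the heterochronic count but not its direction. WT replicate 1 was the highest library in 10 of the 19 genes, WT replicate 3 in 8 and WT replicate 2 in 0. The median level of the list, relative to the mean of the 6 libraries, was -0.066 in WT replicate 2 and -0.088 in mutant replicate 1. With the lane covariate 6 of 19 members were lower at an unadjusted p under 0.05, against 3.11% of all genes in that fit, and the median was -0.50. Without WT replicate 1, whose molting genes were highest, 4 of 19 were lower (7.34% of all genes, and 5.45% higher) and the median was -0.32, and without WT replicate 3, 6 of 19 were lower (4.84% of all genes, and 4.74% higher) and the median was -0.39. Without mutant replicate 2 it was 5 of 19 (3.0% of all genes), and without mutant replicate 3 likewise 5 of 19 (3.07% of all genes). In heated animals the median was 0.07.

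Of the genes through which microRNAs act, alg-1 was the most different. ALG-1 is a main Argonaute protein of the C. elegans microRNA pathway. Its message had 846, 789 and 688 normalized counts in mir-85(n4117), against 1987, 1208 and 1465 in WT (log2 fold change -1.005 ± 0.20, edgeR adjusted p = 0.258). The RNA helicase gene cgh-1 had 4251, 3928 and 3228 in mir-85(n4117), against 7417, 5467 and 5530 in WT (-0.69 ± 0.18), and ain-1, a GW182-like partner of ALG-1, had 1034, 903 and 855 against 1239, 1100 and 1316 (-0.39 ± 0.13). The strains did not overlap in any of the 3 genes. The second Argonaute alg-2 (659, 519 and 519 against 797, 657 and 667) overlapped by a small margin, and rde-1, an Argonaute of RNA interference, was on the other side (1654, 1412 and 1497 in mir-85(n4117), against 1254, 1131 and 1045 in WT). In all, 3 of 17 tested genes of the pathway were lower and 1 higher at an unadjusted p under 0.05. At 35°C alg-1 was at -0.09.

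The vitellogenins and part of the adult collagens split the mutant libraries rather than the strains. The vitellogenins, the yolk proteins of adult hermaphrodites, summed to 28000, 5640 and 2570 normalized counts in mir-85(n4117), against 24300, 21600 and 23300 in WT. Mutant replicate 1 was thus at the WT level and mutant replicates 2 and 3 were below every WT library, a 10.9-fold range within the mutant, against 1.12-fold within WT. The adult cuticle collagen gene col-19 gave the same order, with 9052, 1995 and 812 in mir-85(n4117), against 5507, 7739 and 9343 in WT. So did vit-2 (5298, 475 and 209 against 4631, 3358 and 4558) and col-62 (216, 29.4 and 17.8 against 201, 92.8 and 292), and col-7 as well. The other 2 adult collagen genes, bli-1 and bli-2, went the other way within the mutant and were lowest in mutant replicate 1: bli-1 had 4065, 5254 and 9083 in mir-85(n4117), against 17530, 4246 and 5319 in WT. The sum over the 5 collagens, most of it from bli-1 and bli-2 and from col-19, was 17300, 14400 and 20300 in mir-85(n4117), against 34600, 16900 and 21600 in WT. None of the 6 vitellogenins and 5 adult collagens was at an unadjusted p under 0.05, although all 11 had a negative log2 fold change.

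Oocyte genes followed the order of the vitellogenins in part. The 20 oocyte and eggshell genes summed to 41900, 24000 and 23300 normalized counts in mir-85(n4117), against 31800, 36900 and 28600 in WT, and in 16 of them mutant replicate 1 was the highest of the 6 libraries. At an unadjusted p under 0.05 1 of 20 was lower, and without mutant replicate 1 it was 13, with a median of -0.46 in place of -0.14. The yolk receptor gene rme-2, for example, had 3934, 2375 and 2324 in mir-85(n4117), against 2923, 3472 and 3174 in WT. The same 2 mutant libraries, replicates 2 and 3, that were low for the summed yolk and oocyte genes were the ones high for the heat-inducible chaperones. The part of developmental time in the chaperone difference was not tested. Without mutant replicate 1, the median log2 fold change was -2.66 for vitellogenins and 3.71 for the chaperones, against -0.78 and 3.27 with it, and all 6 vitellogenins were then lower and all 5 chaperones higher at an unadjusted p under 0.05, beside 6.82% and 6.02% of all genes.

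Molting genes pointed instead to 1 WT library. The 22 genes of molting and the apical matrix summed to 53700, 70900 and 78800 normalized counts in mir-85(n4117), against 110000, 58800 and 59300 in WT, and 14 of the 22 were highest in WT replicate 1. The protease inhibitor gene mlt-11, needed to shed the old cuticle, had 2128, 2115 and 2886 in mir-85(n4117), against 12450, 3079 and 4303 in WT (log2 fold change -1.48 ± 0.51, edgeR adjusted p = 0.443). The matrix protein gene noah-1 had 3885, 3314 and 5869 in mir-85(n4117), against 13210, 3959 and 3847 in WT. Against this, the nuclear receptor gene nhr-25, which acts in molting and epidermal fates, separated without leaning on that library: 62.2, 71.6 and 69.4 in mir-85(n4117), against 121.7, 107 and 146 in WT (-0.87 ± 0.19, edgeR adjusted p = 0.273). Of the 22 members, 6 were lower at an unadjusted p under 0.05 and none higher, with a median of -0.25. Without WT replicate 1 the median was 0.02, with 2 members higher and 3 lower (5.45% and 7.34% of all genes). With the lane covariate, which rests on that library, 13 of 22 were lower and 1 higher (3.11% and 2.27% of all genes).

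**Figure D4:**
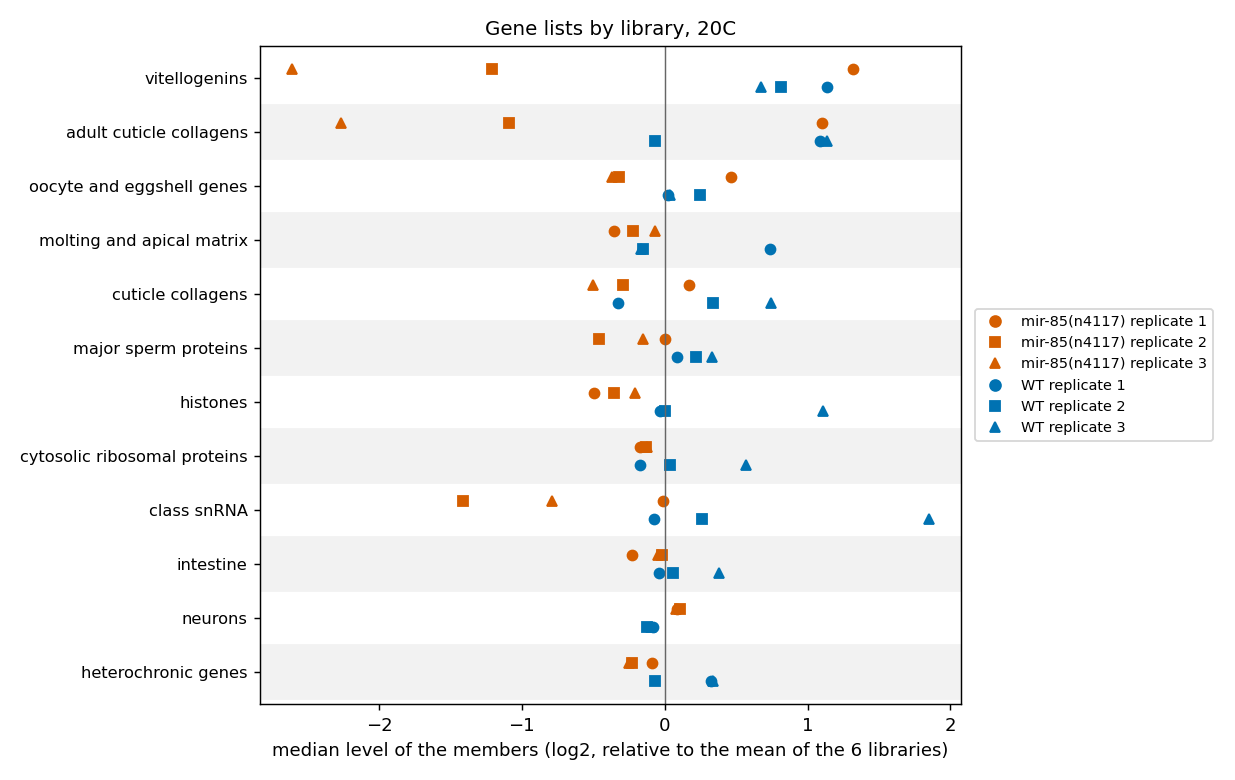
Median level of the tested members of 12 gene lists in each library, on the log2 scale relative to the mean of the 6 libraries, mir-85(n4117) above WT in each row. Mutant replicates 2 and 3 lie apart for vitellogenins and adult collagens, WT replicate 1 for molting genes and WT replicate 3 for histones, ribosomal proteins and snRNAs, whereas the strains separate without such a library for neuronal genes.

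Several large families were lower in mir-85(n4117) but highest in WT replicate 3, the library rich in ribosomal RNA. Of 36 histone genes tested, 19 were lower at an unadjusted p under 0.05 and none higher, with a median log2 fold change of -0.84, but in 35 of them WT replicate 3 was the highest library. The histone gene his-67 had 2220, 1924 and 2114 normalized counts in mir-85(n4117), against 3552, 4383 and 10090 in WT. Without WT replicate 3, 18 histone genes were lower and 2 higher (4.84% and 4.74% of all genes) and the median was -0.35. The number lower was 8, 11 and 12 without mutant replicate 1, 2 and 3 in turn, and 2 with the lane covariate (median -0.32). Of 22 small nuclear RNAs of the splicing machinery, 10 were lower with a median of -1.46, and all 22 were highest in WT replicate 3. Without that library 2 were lower (4.84% of all genes) and the median was -0.71.

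The cuticle collagen family (names in col-) and ribosomal protein genes were also mostly highest in that library. Of the tested collagen genes 103 had a negative and 16 a positive log2 fold change (median -0.51), 11 were lower and 1 higher at an unadjusted p under 0.05, and 90 were highest in WT replicate 3. For example col-98 had 654, 492 and 629 normalized counts in mir-85(n4117), against 1252, 1472 and 2291 in WT (log2 fold change -1.49 ± 0.25, edgeR adjusted p = 0.211). In col-98 the mutant was lower than each WT library, and at 35°C its value was -1.64, yet for the family the median was -0.26 without WT replicate 3 and 0.16 with the lane covariate. The number of lower collagen genes moved with other libraries too, to 46 without mutant replicate 1 and 39 without WT replicate 1, against 9 without WT replicate 3. Over all genes 6.82%, 7.34% and 4.84% were lower in those fits in turn. All but 1 of the 79 cytosolic ribosomal protein genes had a negative log2 fold change (median -0.31), 78 were highest in WT replicate 3, none was at an unadjusted p under 0.05, and the median was -0.08 without that library. Their direction turned with the lane covariate (median 0.05, 59 positive), and 31 were lower at an unadjusted p under 0.05 without WT replicate 1 (7.34% of all genes).

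Sperm genes were also lower. The major sperm proteins drive sperm crawling and signal oocyte maturation, and their messages are made in the L4 germline. Of 29 tested, 28 had a negative log2 fold change, 15 were lower at an unadjusted p under 0.05 and 17 had all mutant libraries below all WT libraries, with a median of -0.41. Their sum was 42000, 31100 and 38600 normalized counts in mir-85(n4117), against 44500, 49500 and 55100 in WT, so the highest mutant library was just below the lowest WT library. Mutant replicate 2 was the lowest library in 28 of the 29 genes, and WT replicate 3 was the highest in 18. The member msp-33 had 1954, 1597 and 1941 in mir-85(n4117), against 2309, 2685 and 2789 in WT (-0.50 ± 0.14, edgeR adjusted p = 0.342). Messages of this family are alike in sequence, so counts may be shared among its members and these are not independent values. The median was -0.37 at 35°C, -0.35 without WT replicate 3 and -0.26 with the lane covariate, while the count of members at an unadjusted p under 0.05 was 1 without mutant replicate 2 (3.0% of all genes), 1 with the lane covariate (3.11%) and 2 in a fit of all 12 libraries (3.94%).

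Other genes of spermatogenesis went the same way in smaller number. Of 60 tested, 12 were lower at an unadjusted p under 0.05 and none higher, with a median of -0.13. The sperm phosphatase gene gsp-3 had 2270, 1904 and 2214 normalized counts in mir-85(n4117), against 2603, 2882 and 2817 in WT (log2 fold change -0.38 ± 0.12), and ssp-33 had 174, 142 and 189 against 292, 269 and 318 (-0.79 ± 0.16). Neither gene overlapped between strains. The count was 1 without mutant replicate 2, where 3.0% of all genes were lower, 2 without WT replicate 2, where 4.6% were, and 3 without mutant replicate 3. It was 13 to 19 with any other library left out. With the lane covariate 1 of 60 was lower, beside 3.11% of all genes.

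Germline lists had few members past the limit, with 2 of 14 sex determination genes lower and none higher (median -0.06). Of 32 genes of the germline and meiosis 2 were lower and 1 higher (median -0.03), and 3 separated by strain as lower and 4 as higher. The germline translational repressor gene gld-1 had 2893, 2262 and 2024 normalized counts in mir-85(n4117), against 4159, 3385 and 3328 in WT (-0.60 ± 0.18, edgeR adjusted p = 0.382). The sex determination factor gene tra-1, which promotes female fates, had 1259, 1306 and 1053 in mir-85(n4117), against 1736, 1589 and 1830 in WT (-0.51 ± 0.13, edgeR adjusted p = 0.311). Of 22 replication and cell cycle genes 4 were lower, mcm-2 and pcn-1 of the replication fork and the kinase pathway genes cye-1 and cdk-1, and none was higher. The replicative helicase gene mcm-2 had 1577, 1363 and 1282 in mir-85(n4117), against 2153, 1895 and 2062 in WT (-0.53 ± 0.13), and was at -0.48 in heated animals. In all 6 of these genes the lowest WT library was above the highest mutant library. The number of lower replication and cell cycle genes was 1 of 22 with the lane covariate (3.11% of all genes). It was also 1 in a fit of all 12 libraries (3.94%), and 2 to 5 with 1 library left out.

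Among tissue lists, more neuronal genes were higher and more intestinal genes lower than the share over all genes. Of 20 neuronal genes 5 were higher at an unadjusted p under 0.05 (4.59% of all genes were), 7 had all mutant libraries above all WT libraries and none was lower, with a median log2 fold change of 0.16. The tyrosine hydroxylase gene cat-2, which makes dopamine, had 43.5, 45.1 and 46.3 normalized counts in mir-85(n4117), against 23.5, 25.7 and 20.9 in WT (0.92 ± 0.22, edgeR adjusted p = 0.301). The synaptic vesicle priming gene unc-13 had 1698, 1513 and 1598 in mir-85(n4117), against 1276, 1071 and 1042 in WT (0.50 ± 0.13, edgeR adjusted p = 0.31). The vesicle motor gene unc-104 had 1315, 1185 and 1252 in mir-85(n4117), against 985, 904 and 685 in WT (0.54 ± 0.15). The other 2 were eat-4, a glutamate transporter (0.43), and unc-25, which makes GABA (0.25). The mutant libraries were close to each other in these genes, unlike for the chaperones, and the median kept between 0.12 and 0.20 under all alternatives. With the lane covariate, however, 1 gene alone was higher at an unadjusted p under 0.05 (2.27% of all genes). The 30 FMRFamide-like neuropeptide genes had 0 members at that limit and a median of 0.01, and of 51 chemoreceptor genes 5 were higher and 4 lower, with a median of -0.09. Of 9 genes of the gonad sheath and spermatheca 2 were higher and none lower, with a median of 0.17.

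Of 22 intestinal genes 4 were lower at an unadjusted p under 0.05 and none higher, with a median of -0.27. The GATA factor gene elt-2, which specifies the intestine, had 371, 352 and 456 normalized counts in mir-85(n4117), against 571, 526 and 594 in WT (log2 fold change -0.52 ± 0.14, edgeR adjusted p = 0.324). The apical membrane linker gene erm-1 had 5171, 5494 and 5133 in mir-85(n4117), against 7493, 6651 and 6654 in WT (-0.40 ± 0.13). The protease gene asp-1, the most abundant of the list, had 63820, 79160 and 84880 in mir-85(n4117), against 90050, 114600 and 224600 in WT, with WT replicate 3 again far up. The strains were parted in all 3 genes. For the list as a whole the median was -0.07 without WT replicate 3 and -0.036 with the lane covariate, and at 35°C elt-2 was at -0.02. The number lower was 1 without mutant replicate 2 (3.0% of all genes) and 1 without mutant replicate 3 (3.07%). With the lane covariate it was 2 (3.11%). Without WT replicate 3 it was 6 (4.84%), with 1 higher. With any other library left out it was 3 to 5.

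Body wall muscle, pharynx and epidermis were near background. Of 18 muscle genes 1 was at an unadjusted p under 0.05, the myosin light chain gene mlc-1, with 31460, 26700 and 28240 normalized counts in mir-85(n4117), against 18060, 16960 and 21510 in WT (log2 fold change 0.61 ± 0.17, edgeR adjusted p = 0.342). At 35°C it was at 0.58. Of 10 genes of the excretory canal 2 were lower, the formin gene exc-6 (-0.61) and the aquaporin gene aqp-8 (-1.04).

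**Figure D5:**
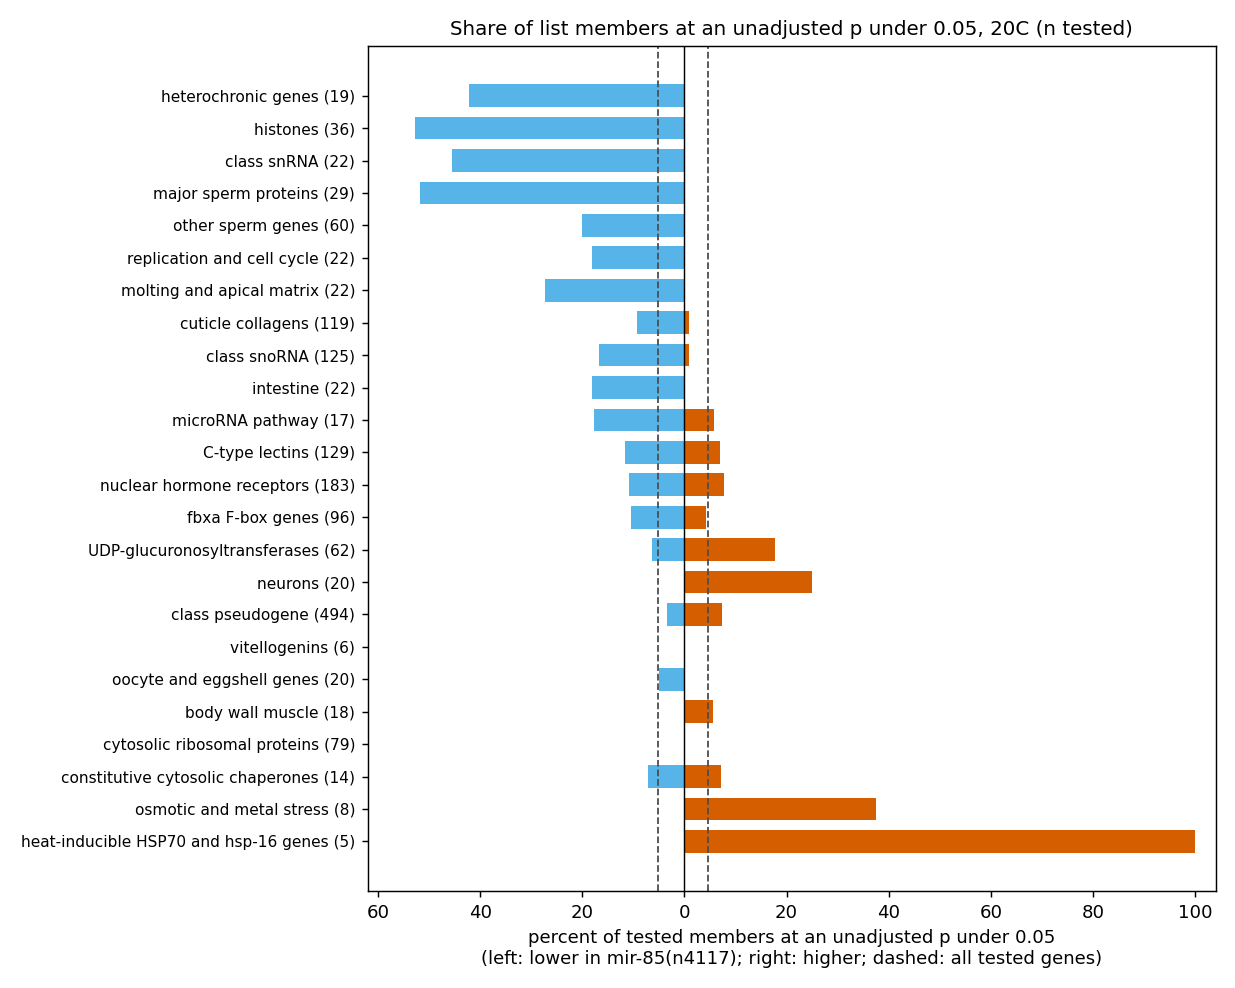
Percent of tested members at an unadjusted p under 0.05 in 24 gene lists, lower in mir-85(n4117) to the left and higher to the right, with the number tested in brackets and dashed lines at the shares over all genes (5.09% and 4.59%). The longest bars are those of heat-inducible chaperones to the right and of histones, major sperm proteins, snRNAs and heterochronic genes to the left.

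Large families with roles in detoxification, immunity and signalling were spread to both sides. Of 62 UDP-glucuronosyltransferase genes, whose products attach sugars to toxins, 11 were higher and 4 lower at an unadjusted p under 0.05, with a median log2 fold change of 0.15. Without WT replicate 1 the number higher was 18 (median 0.32), where 5.45% of all genes were higher. Without mutant replicate 2 it was 6, where 2.43% of all genes were higher. With the lane covariate it was also 6 (2.27% of all genes), and the direction was lost, with 30 positive and 32 negative values. The member ugt-28 had 645, 740 and 586 normalized counts in mir-85(n4117), against 323, 258 and 193 in WT (1.33 ± 0.20, edgeR adjusted p = 0.156), but was at -0.14 at 35°C. At the other end ugt-18 had 4.14, 11.8 and 16.9 in mir-85(n4117), against 18.1, 69.8 and 469 in WT, a value that turned on WT replicate 3. Of 129 C-type lectin genes 9 were higher and 15 lower, of 12 epidermal antimicrobial peptide genes 1 was higher and 2 lower, and of 183 nuclear hormone receptor genes 14 were higher and 20 lower. Of 42 immune effector genes 1 was higher and 3 lower with a median of -0.22, but 28 of the 42 were highest in WT replicate 3 and 21 were lowest in mutant replicate 1.

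Of the nuclear hormone receptor genes nhr-3 (216, 255 and 208 normalized counts in mir-85(n4117), against 399, 487 and 592 in WT, edgeR adjusted p = 0.191) and nhr-14 (126, 118.7 and 134 against 204, 241 and 237, edgeR adjusted p = 0.212) had the lowest p-values of the list, both lower in the mutant. Their log2 fold changes at 35°C were 0.30 and 0.12. Higher was nhr-17, with 262, 1422 and 1443 in mir-85(n4117), against 180, 142 and 151 in WT. Its profile, with mutant replicates 2 and 3 high, was that of the chaperones, and at 35°C it was at -0.49. The Beclin gene bec-1, of autophagy, had 778, 1168 and 1064 in mir-85(n4117), against 614, 590 and 555 in WT (0.77 ± 0.17, edgeR adjusted p = 0.273), while the autophagy kinase gene unc-51 was lower (231, 252 and 255 against 370, 360 and 633), and 2 of 25 autophagy genes were higher and 1 lower in all.

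Of 48 genes of beta-oxidation and lipases 4 were higher and 3 lower at an unadjusted p under 0.05, with a median of 0.04. The acyl-CoA dehydrogenase gene acdh-1, which is known to respond to diet, had 60570, 74360 and 68630 normalized counts in mir-85(n4117), against 44500, 31950 and 12450 in WT (log2 fold change 1.19, edgeR adjusted p = 0.463), and was at 1.15 in heated animals. The hydratase gene ech-6 had 17880, 22180 and 22920 in mir-85(n4117), against 16620, 11770 and 8588 in WT (0.77, edgeR adjusted p = 0.434), and was at 0.76 in heated animals. Both separated by strain, with WT replicate 3 the lowest library.

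Genes near the deleted locus were examined as a group. Of 219 tested protein-coding genes within 500 kb of mir-85, 14 were higher and 5 lower at an unadjusted p under 0.05. Over all genes tested, 4.59% were higher and 5.09% lower at that limit. The median log2 fold change of the group was 0.08. Of these, lact-4 had 536, 841 and 795 normalized counts in mir-85(n4117), against 376, 294 and 255 in WT (log2 fold change 1.22, edgeR adjusted p = 0.221), and DH11.2 had 2265, 2741 and 2109, against 1052, 368 and 498 (1.89, edgeR adjusted p = 0.263). Both genes were also higher in the mutant after heat, by 0.65 and 0.91. The genes directly beside F49E12.8 were F49E12.10 (-1.67, with 91.2, 117 and 92.6 in mir-85(n4117), against 121, 262 and 597 in WT) and dod-23 (0.10).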

How the data were processed

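The authors removed ribosomal RNA, made reversely stranded libraries (strand setting 2), used STAR for alignment and featureCounts 1.6.5 for counting. Each deposited file holds unnormalized, whole-number counts of 1 library for 46904 identifiers. The headers name Ensembl release 100. Names and WBcel235 positions came from release 115, which held 46817 of them. Per-sample depth is given in the report, and low counts limit single genes most in WT replicate 3.

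The 6 unheated libraries were fitted with edgeR 4.0.16 (R 4.3.3, limma 3.58.1): filterByExpr, TMM, robust quasi-likelihood, Benjamini-Hochberg adjustment over all 15349 genes tested. The SE is the absolute log2 fold change over the square root of F. Principal components used log2 CPM with a prior count of 2. On simulated counts edgeR recovered 34% of the changed genes at 1 log2 unit and 94% at 2, among 15193 tested.

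Values at 35°C came from the same fit of the heated libraries. Alternatives were DESeq2 1.42.0, RLE, TMM on protein-coding genes, other filters, all 12 libraries, the replicate block, the lane, and leaving out each library. Genes were named if called, among the 10 largest differences either way with an unadjusted p under 0.05 and separated libraries, of lowest p, defining or most abundant in a list, or beside a call. A few further list members were picked after their values had been seen. Members and lists were chosen with earlier results of these data known. Sequences were not analysed here.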

Additional observations from a re-analysis of the deposited data

Results flagged for a closer look

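The heterochronic gene lin-14 was the only gene named in the text whose libraries separated by strain one way at 20°C and the other way at 35°C. Its log2 fold change was -0.31 in unheated animals, with every mir-85(n4117) library below every WT library, and 0.16 in heated animals, with every mir-85(n4117) library above. The difference between the temperatures was not tested. Groups of 3 are too small to test a single library as an outlier.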

How the results depend on the processing

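The number of calls depended strongly on the processing, and the counts and medians of some lists moved with it too. Against 2 higher and 6 lower, DESeq2 called 59 and 76, no filter on low counts 32 and 32, a minimum of 10 counts in every library 0 and 0 (at an unadjusted p under 0.05 it had 614 higher and 707 lower genes), the replicate block 0 and 2, and the lane covariate 0 and 2. Leaving out 1 library gave 0 to 7 higher and 1 to 5 lower calls. At an unadjusted p under 0.05 the lane covariate gave 349 higher and 477 lower genes, and leaving out 1 library 365 to 934 higher and 468 to 1146 lower. On simulated counts 27.1% of the genes that DESeq2 found significant were unchanged, against 6.57% for edgeR. DESeq2 recovered more of the changed genes, 64% at 1 log2 unit and 97% at 2, against 34% and 94% for edgeR. The counts were drawn with edgeR's own fitted dispersions and without a lane effect, so they cannot rank the tools on these libraries. Same-numbered libraries did not deviate together (correlations of 0.07, -0.263 and 0.045 over 14506 genes). With 3 libraries per strain these correlations cannot settle whether same-numbered libraries were grown together, and the labels do not state it. RLE and TMM on protein-coding genes changed no call and no direction of a gene or list median named here. With the lane covariate the median log2 fold change was 0.16 for cuticle collagens, 0.20 for neurons, -0.036 for the intestine, -0.85 for molting genes and -0.41 for snRNAs, and that of neurons was 0.12 with the minimum of 10 counts and 0.13 to 0.18 over single libraries left out. These genes changed sign: hsf-1 (0.0048 with no filter, -0.098 to 0.057 with 1 library left out), lin-28 (0.052), mtl-1 (1.17), mlt-10 (-0.36) and blmp-1 (-0.50) with the lane covariate, blmp-1 with 1 library left out (-0.19 to 0.38), and bli-1 (0.36) and noah-1 (0.16) without WT replicate 1 (lowest with any other library left out -0.95 and -0.99). The cause was not tested. With 3 libraries per strain, a change of 2-fold was often missed on simulated counts, so a gene outside the calls is not shown to be alike in both strains.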

Other observations

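Pseudogenes were shifted slightly upward in mir-85(n4117): of 494 tested, 36 were higher and 17 lower at an unadjusted p under 0.05 (4.59% and 5.09% of all genes were). In 211 of them mir-85(n4117) replicate 1, the deepest library, was the highest of the 6, as it was in 3259 of all 15349 genes. Small nucleolar RNAs were shifted downward, with 21 of 125 lower and 1 higher. Of these RNAs 101 were highest in WT replicate 3, as were 4440 of all 15349 genes. The number lower was 5 with the lane covariate (3.11% of all genes) and 9 without WT replicate 3 (4.84%). It was 6 without mutant replicate 2 (3.0%), 6 without mutant replicate 3 (3.07%) and 31 to 60 with any other library left out. The insulin-like gene ins-12 had 34.5, 23.6 and 22.3 normalized counts in mir-85(n4117), against 7.47, 7.35 and 7.82 in WT (log2 fold change 1.83, edgeR adjusted p = 0.238). Of the genes with the largest differences, lact-6 (27.6, 132 and 81.0 in mir-85(n4117), against 6.403, 5.51 and 10.4 in WT) and dct-7 (32.5, 120 and 67.6 against 6.403, 4.59 and 23.5) were highest in mutant replicate 2. Those lowest in the mutant, K10D11.2 (5.53, 4.91 and 6.23 against 13.9, 34.0 and 164) and comt-4 (8.29, 17.7 and 14.2 against 23.5, 34.9 and 354), rested on WT replicate 3.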
